A study of Saccharomyces cerevisiae with 4 samples.

Results

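Subtelomeres are the stretches of a chromosome just inside its telomere. In budding yeast each end carries a repeated element called X, and some ends also carry, outside it, a longer repeat called Y', whose open reading frames encode a helicase-like protein. Nearby lie repeated gene families, among them the seripauperin (PAU) and COS genes, and much of this chromatin is held silent by Sir proteins. Swc4, the protein mapped here, belongs both to SWR1, which places the histone variant H2A.Z in nucleosomes, and to the NuA4 histone acetyltransferase, and H2A.Z is known to limit the spread of silent chromatin from telomeres.

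The peaks described are those of Swc4 whose summit lay within 30 kb of the end of a nuclear chromosome. The left end was taken as base 0 and the right end as the outermost gene or peak on that chromosome, and 7 summits inside tRNA genes were left out. This gave 200 of 3343 nuclear peaks in 4 lists, on 29 of 32 chromosome arms, and merging overlapping peaks gave 97 of 1726 loci. Haploid cells of the BY background, untreated and in mid-log growth in YPD, were used for chromatin immunoprecipitation with a myc antibody and sequencing. Swc4 carried 13 myc copies in every library, in otherwise wild_type cells (2 libraries) or in yaf9d cells (2 libraries), named for loss of YAF9, whose product is shared by the same complexes. The deletion is given by the sample titles, while the genotype entry of those samples names the tag alone. Whether the libraries of one genotype are separate cultures is not stated, so the p-values measure only the spread between these libraries. No library from untagged cells is used here.

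Every peak has in its list a fold, the authors' ratio of summit signal to a background computed around it. Folds belong to their own list. Libraries were therefore compared by ranks within a list, where 0% is the strongest of all nuclear peaks. Values of 4 libraries are given in the order wild_type replicates 1 and 2, then yaf9d replicates 1 and 2. The absence of a call does not show the absence of Swc4. The lists held 884, 704, 616 and 1139 nuclear peaks, with no read totals. The median summit pileup recovered from fold and p-value was 131.5, 126, 131.5 and 146 reads on the scale of the peak caller. That value depends on enrichment as well as depth. The background recovered most often was 31.11, 28.35, 27.28 and 32.49 reads, which ordered the libraries as their numbers of peaks did. The part of depth in the counts of calls was not tested.

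Swc4 peaks were sparse in the subtelomeres in 3 of the 4 libraries. The median rank of those present was 27.6%, 28.7%, 46.0% and 34.4%. This was stronger than the middle of each list, but only narrowly in yaf9d replicate 1. The members numbered 52, 40, 46 and 62, which was 5.88%, 5.68%, 7.47% and 5.44% of each list, while the windows made up 7.96% of nuclear length. Per 100 kb there were 5.42, 4.17, 4.79 and 6.46 members, against 7.19, 5.64, 4.51 and 9.02 peaks per 100 kb in the rest of the genome, counted there too without tRNA summits. Only in yaf9d replicate 1 was the subtelomeric value the higher one. The mean share was 5.78% ± 0.142 for wild_type against 6.46% ± 1.43 for yaf9d (SD over 2 libraries each). That difference was smaller than the spread between replicates, with p = 1 in a two-sided exact permutation test.

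The median fold of the members was 2.20, 2.34, 2.69 and 2.07, against 1.82, 1.91, 2.49 and 1.80 for all other nuclear peaks. Here and below, other nuclear peaks include those with summits in tRNA genes. Of the members, 31 of 52, 27 of 40, 37 of 46 and 32 of 62 had a fold of 2 or more (59.6%, 67.5%, 80.4% and 51.6%), against 37.0%, 44.6%, 66.9% and 37.0% of all nuclear peaks. Taken over all members, median pileup and median background were both lower, but this did not hold in each place described below. Median pileups were 181, 161, 206 and 203 reads on the centromere side of Y' elements. They were 153, 123, 127 and 161.5 in the outermost 1 kb. In the rest of the windows they were 98, 100, 89 and 92, with median folds of 1.83, 1.95, 2.11 and 1.75. The median summit pileup of members was 112.5, 116, 112 and 111.5 reads on the caller's scale, against 132, 126.5, 133 and 147 for other peaks. Their median background was 50.1, 42.9, 39.8 and 49.5, against 65.8, 57.4, 47.3 and 71.8. How reads that match several repeats were placed is not given in the sources used here, and the part of read placement in these folds was not tested. Median widths were 422.5, 567.5, 462.5 and 432.5 bp, close to the 451, 616.5, 438 and 407 bp of other peaks.

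**Figure D1:**
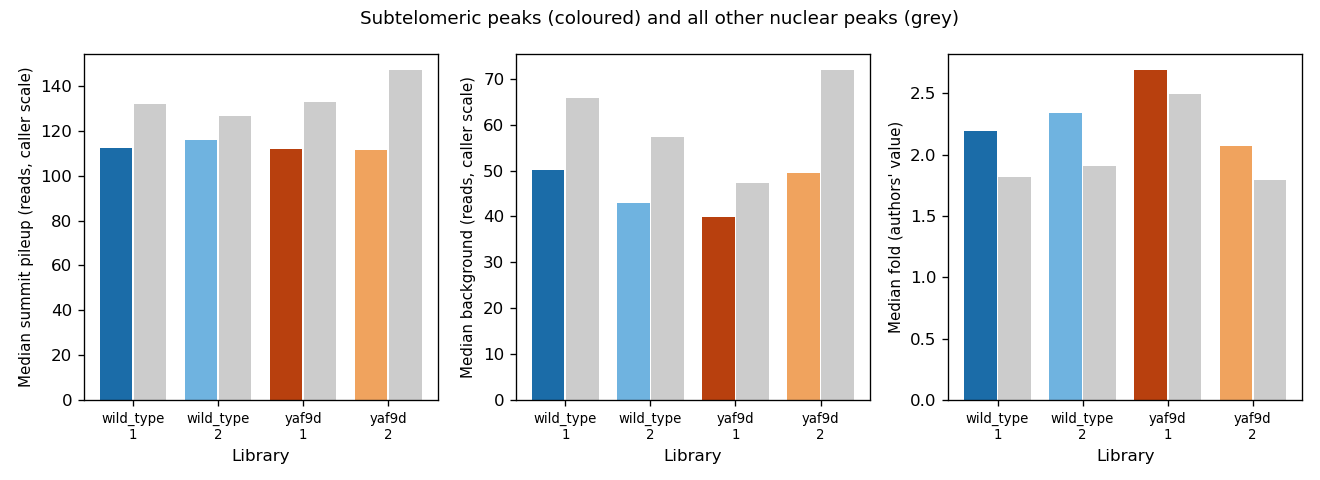
Median summit pileup, median background (both in reads on the scale of the peak caller) and median fold for subtelomeric peaks (coloured bars) and all other nuclear peaks (grey bars), by library. In each library the subtelomeric bar is lower for pileup and background and higher for fold, for example 112.5 against 132, 50.1 against 65.8 and 2.20 against 1.82 in wild_type replicate 1.

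The members clustered at a pair of places, next to the chromosome end and on the centromere side of Y' elements. By distance, 51 of the 200 members had their summit in the outermost 1 kb and 6 between 1 and 4 kb. A further 46 lay from 4 to 8 kb, and 8 from 8 to 12 kb. The remaining 89 were spread from 12 to 30 kb, at between 3.75 and 6 peaks per kb of distance summed over the 32 ends and 4 libraries. Which of the places held called peaks went with the presence of Y' genes in the RefSeq gene table. The part of read placement among repeats in this split was not tested. Of 32 arms, 17 have Y' genes in the windows and 15 have none. Between 4 and 8 kb from the end, 10, 11, 10 and 10 of the 17 arms with Y' had a peak, against 1, 1, 1 and 0 of the 15 arms without. In the outermost 1 kb the order was the reverse, with 3, 1, 2 and 2 arms with Y' against 9, 9, 13 and 12 arms without. That count is partly fixed by how ends were set. On 8 chromosomes the right end was set by a peak, and all of these arms except VIII right lack Y'. Left ends are free of this and are given apart below. This split of the arms was made after the positions had been seen, and is given as a description with no test.

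**Figure D2:**
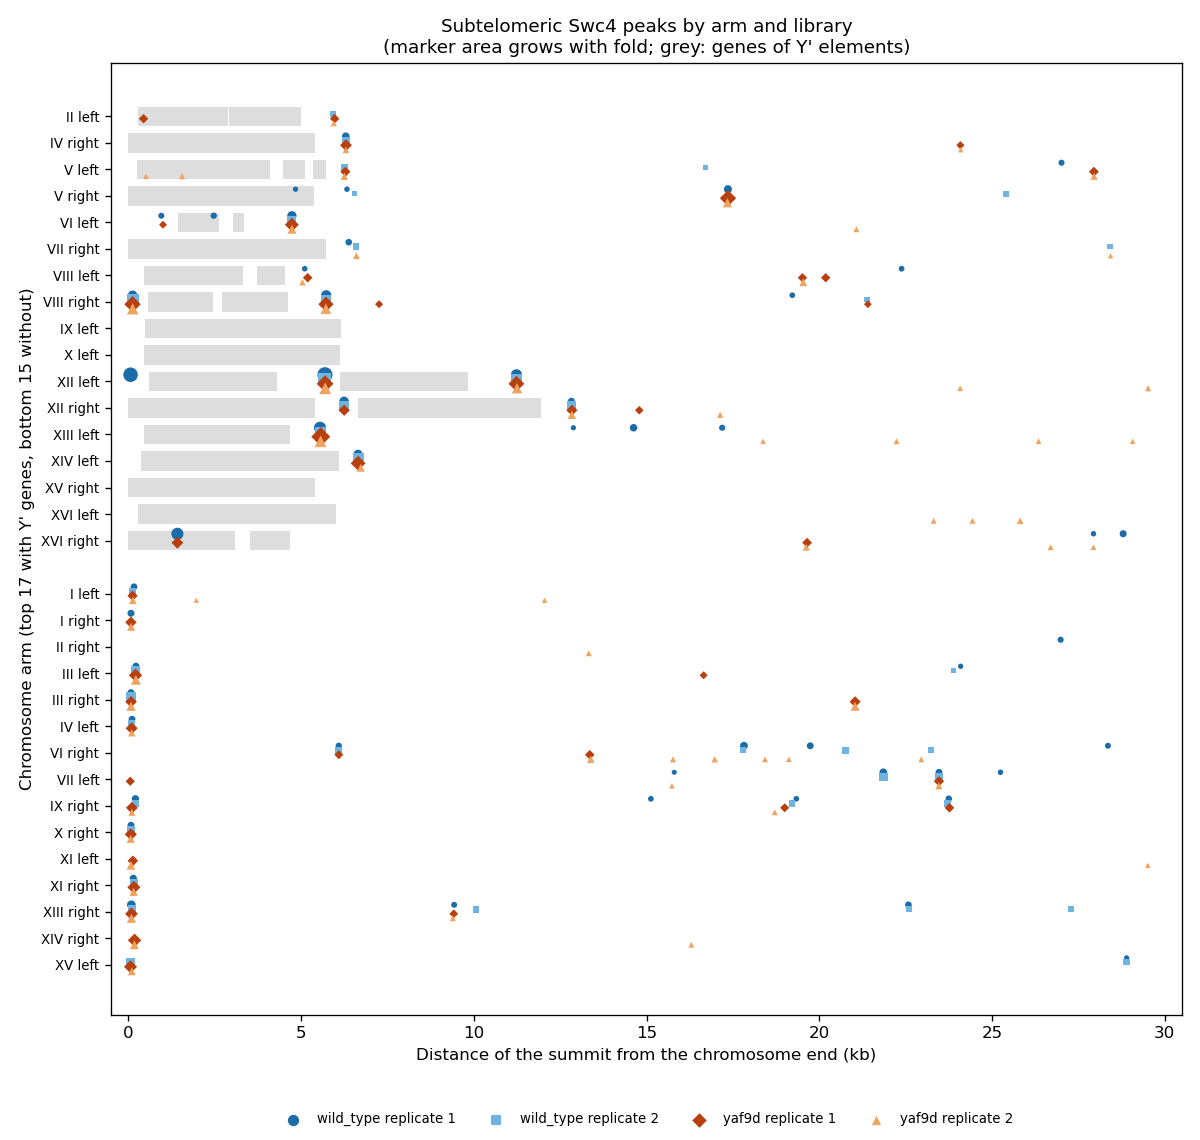
Each row is a chromosome arm and the horizontal axis is the distance of the summit from the chromosome end in kb. Markers are peaks of the 4 libraries, larger with higher fold, and grey bars are genes of Y' elements from the gene table. Markers stack just beyond the grey bars on 12 of the 17 arms with Y' and near 0 kb on 13 of the 15 arms without. On 8 chromosomes the right end was set by a peak, so a marker near 0 kb is given there by construction.

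On the centromere side of Y', a peak within 2 kb of the innermost Y' gene was found on 12 of the 17 arms, in 10, 11, 10 and 11 arms per library. The mean was 10.5 ± 0.707 arms in each genotype (SD over 2 libraries; two-sided exact permutation test, p = 1). This place was chosen after the positions had been seen, so the test decides nothing about genotype. Summits lay between 499 and 1416 bp from the base of that gene nearest the centromere, which is its coding start. Medians were 893.5, 908, 903 and 894 bp in the 4 libraries. X elements and telomeric repeats have no rows in the gene table, and which of them lies under a summit is not analysed here. The peaks at this place ranked high, with medians at 10.9%, 15.2%, 28.0% and 18.9% of their lists and folds with medians of 3.09, 3.14, 3.70 and 2.89. Their median pileups, 181, 161, 206 and 203 reads on the caller's scale, were above those of all other nuclear peaks, so they differ in this from the members as a whole.

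The strongest of them was on XIII left (5326 to 5783). It had folds of 6.23, 5.52, 7.57 and 5.84, its 4 summits fell within 23 bp of each other, and the nearest coding start, 885 bp away, was that of the Y' gene YML133C. On the right arm of chromosome VIII a peak from 556311 to 557232, beyond YHR218W, had folds of 4.46, 4.24, 5.0 and 4.81, with summits within 10 bp. The left arm of chromosome XIV had one from 6483 to 7303 with folds of 3.56, 5.42, 4.76 and 2.89, reaching the promoter of the Y' helicase gene YRF1-6. The left arm of chromosome VI had one from 4044 to 5385 with folds of 3.73, 3.14, 4.22 and 3.64, near the start of YFL064C. All 4 of these sites were called in every library. The folds of the genotypes overlapped at 3 of them, while at the VIII right site both yaf9d folds were above both wild_type folds, though their ranks, at 3.51%, 8.25%, 15.1% and 5.45%, overlapped.

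Weaker sites of the same kind, named after their values were seen, were on the right arm of chromosome IV beyond YRF1-1 (1524869 to 1525617; folds of 2.62, 2.51, 3.18 and 2.17), and in 3 libraries each on the arms II left, V left, VII right and VIII left. The right arm of chromosome V had a peak there in both wild_type libraries, with a fold of 1.54 in each, and in neither yaf9d library. The arms IX left, X left, XV right, XVI left and XVI right have Y' genes and had no peak within 2 kb of them on the centromere side. IX left, X left and XV right had no member at all in any library, and XVI left had members in yaf9d replicate 2 alone.

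Chromosome XII carries Y' genes in tandem on both arms, and there the peaks were doubled. On its left arm one peak, from 5423 to 5946, lay between the copies, over YLL066W-B, a short coding sequence, and had folds of 9.44, 6.54, 6.01 and 5.99. It ranked at 0%, 1.85%, 11.7% and 2.20% of the lists and had the best mean rank of the loci called in all 4 libraries. The other, from 10934 to 11949, lay beyond the inner copy, with folds of 5.23, 5.15, 5.41 and 4.64. The summits were 1392, 1384, 1395 and 1399 bp from the outer Y' gene YLL067C, and 1401, 1400, 1399 and 1416 bp from the inner gene YLL066C. On the right arm the same held with another spacing. The peak between the copies (1071328 to 1071995; folds of 3.85, 4.19 and 2.90 with no call in yaf9d replicate 2) had its summit 854, 861 and 858 bp from YRF1-5. The peak beyond the inner copy (1064483 to 1065499; 2.27, 3.41, 2.81 and 3.18) had it 883, 891, 897 and 894 bp from YLR462W. Y' copies are nearly identical, so peaks at different copies need not be independent measurements.

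Inside Y' genes themselves few summits fell, 4, 1, 3 and 3 per library. Of these, 1 in each library was the one in YLL066W-B, which left 3, 0, 2 and 2. An example is YPR204W on the right arm of chromosome XVI (946047 to 946572), with folds of 6.20 in wild_type replicate 1 and 3.16 in yaf9d replicate 1 and no call in the other libraries.

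At the chromosome ends without Y', the summit lay close to the last base. Left ends, which are base 0 and cannot be moved by a peak, show this best. Of the 6 left arms without Y', 3, 4, 6 and 5 had a peak in the outermost 1 kb, against 2, 0, 1 and 1 of the 10 left arms with Y'. On chromosome I the peak from 1 to 632 had summits 165, 115, 122 and 132 bp from the end and folds of 2.12, 2.32, 2.48 and 2.72. On chromosome IV the peak from 1 to 609 had summits at 108, 96, 98 and 98 bp and folds of 2.19, 2.70, 3.24 and 2.52. On chromosome III the peak from 10 to 964 had summits at 220, 201, 208 and 220 bp and folds of 2.37, 3.54, 3.87 and 4.26. These 3 were called in every library. The left end of chromosome XV was called in all but wild_type replicate 1 (3.16, 3.75 and 2.79), that of chromosome XI in both yaf9d libraries alone (2.58 and 3.39), and that of chromosome VII in yaf9d replicate 1 alone (2.05).

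Right ends were set by a peak on 8 chromosomes, at up to 3518 bp beyond the last gene, and such an end has a peak in its outermost 1 kb by construction. Of these, VIII right carries Y' and was the best ranked of the ends called in every library, from 562124 to 562631, with folds of 3.87, 6.18, 5.75 and 5.53. III right, over YCR108C, had 2.39, 4.56, 3.06 and 3.74, and XIII right (923891 to 924418) had 3.36, 3.01, 3.61 and 3.66. X right (745052 to 745751; 2.26, 3.06, 3.30 and 2.99), XI right (666086 to 666807; 2.40, 3.05, 3.78 and 3.06) and IX right (439217 to 439887; 2.48, 1.99, 3.12 and 2.33) were also called in every library. I right was missing from wild_type replicate 2, and XIV right was called in both yaf9d libraries alone (783472 to 784318; 3.94 and 3.49). Over all arms, 12, 10, 15 and 14 had a peak in the outermost 1 kb (means 11 ± 1.41 for wild_type against 14.5 ± 0.707 for yaf9d, SD over 2 libraries each). The difference of 3.5 arms exceeded the spread between replicates, and the two-sided exact permutation test gave p = 0.333, below which 2 against 2 libraries cannot go. This place was chosen after the positions had been seen, and called peaks themselves set the right end on 8 chromosomes. The test therefore decides nothing about genotype, and the count is a description. The terminal peaks ranked at medians of 21.3%, 16.6%, 34.5% and 17.1%.

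A single terminal peak stood apart from its group. The left end of chromosome XII, from 5 to 322, had a fold of 8.75 in wild_type replicate 1, at 0.113% of that list, and was called in no other library.

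**Figure D3:**
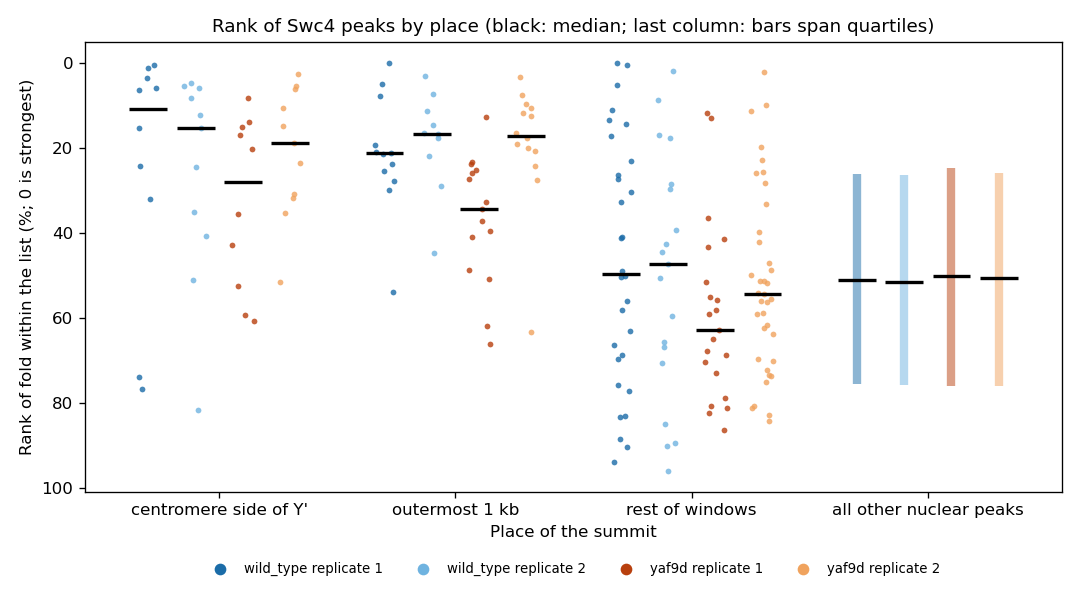
Rank of fold within each list (vertical axis, in percent, 0 strongest at the top) for peaks within 2 kb on the centromere side of Y' genes, in the outermost 1 kb, elsewhere in the windows, and for all other nuclear peaks (bars span the quartiles). Black lines are medians, which lie at 10.9% to 28.0% beside Y', at 16.6% to 34.5% at the ends and at 47.4% to 62.9% elsewhere in the windows.

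Outside these places the members ranked near the middle of their lists. These 30, 19, 21 and 37 peaks had median folds of 1.83, 1.95, 2.11 and 1.75 and median ranks of 49.6%, 47.4%, 62.9% and 54.3%. They include the peaks between tandem Y' copies and those inside Y' genes more than 1 kb from an end, such as the one in YPR204W. Over all members the median rank was 27.6%, 28.7%, 46.0% and 34.4%, with means of 28.2% ± 0.778 for wild_type against 40.2% ± 8.24 for yaf9d (SD over 2 libraries each). The shift of 12 percentage points toward weaker ranks in yaf9d was above both SDs (same test, exact p = 0.333, again the lowest reachable). It was only slightly larger than the gap between the yaf9d replicates, at 46.0% and 34.4%. The shift was 6.17 points without yaf9d replicate 1. Of members in the strongest 10% of a list there were 11, 8, 1 and 7.

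Among loci called in all 4 libraries, the ranks can be followed site by site. At 4 of the 21 subtelomeric loci both yaf9d ranks were weaker than both wild_type ranks, and at 0 of 21 both were stronger, against 11.3% and 20.4% of the 230 other loci called in all 4 libraries. The 4 sites were both on XII left, with ranks of 0%, 1.85%, 11.7% and 2.20% between the copies and 1.13%, 5.83%, 14.0% and 6.15% beyond them, and those on XIV left and IV right. XIV left had 6.46%, 5.41%, 17.1% and 18.9%, and IV right had 15.4%, 24.5%, 35.6% and 30.8%. All 4 of these sites lie beside Y' genes. Of the 21 loci, 7 lie on the centromere side of Y', in addition to the one between the copies on XII left. The sites on XII left are at nearly identical copies and need not be independent. Ranks are relative to the other peaks of a list, so a weaker rank can come from other peaks being stronger.

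**Figure D4:**
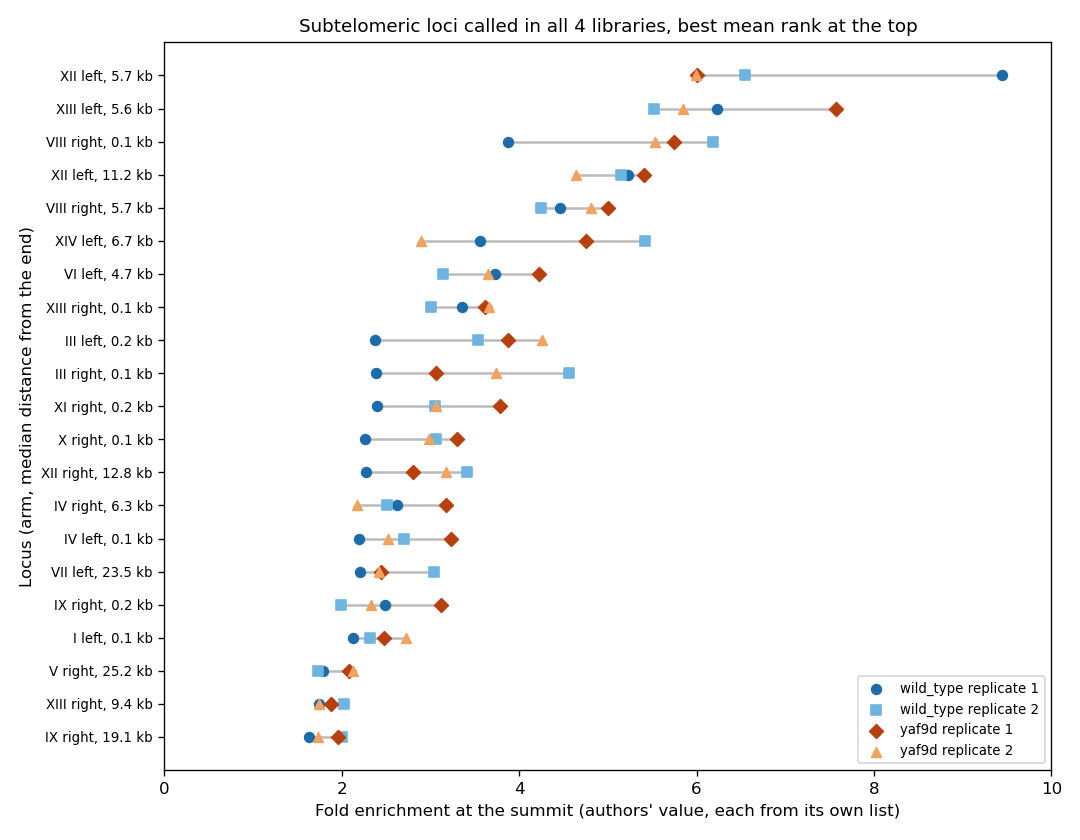
Fold at the summit (horizontal axis, the authors' value from each list) for the 21 subtelomeric loci called in all 4 libraries, ordered by mean rank, with the arm and the median distance from the end on the vertical axis. At V right 3 of the 4 summits lie in a tRNA gene and are not members. Folds run from 9.44 in wild_type replicate 1 at XII left, between the Y' copies, to 1.63 in the same library at IX right over LYS1.

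The position of a summit was reproducible at these loci. The 4 summits of a locus spanned a median of 17 bp, with a range of 2 to 667 bp, and 16 of 21 loci (76.2%) had them within 50 bp. The median was 46 bp at the 230 other loci called in all 4 libraries, of which 51.3% had them within 50 bp. The widest were over FET4 (667 bp) and LYS1 (625 bp).

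Loci of the subtelomeres were shared between libraries as follows. All 4 libraries called 21 of 97 (21.6%), against 14.5% of all nuclear loci. One of the 21, on V right over ISC10 and SLO1, counts there through peaks with summits in a tRNA gene, which are not members. With such peaks left out before merging, 20 of 97 (20.6%) were called in all 4 libraries, against 13.4% of 1656 nuclear loci. A single library called 45 (46.4%), against 51.7%, and 22 of these came from yaf9d replicate 2. That is 22.7% of the 97 loci, against 25.8% of all nuclear loci called in that library alone. Found in wild_type alone, in both of its libraries, were 5 (5.15%, against 7.07%), and found likewise in yaf9d alone were 7 (7.22%, against 5.91%). The remaining 19 (19.6%, against 20.8%) had other combinations. With peaks in tRNA genes left out before merging, the shares of all nuclear loci called in 1 genotype alone were 7.25% for wild_type and 4.77% for yaf9d. The subtelomeric shares stayed at 5.15% and 7.22%. These differences rest on 5 and 7 loci and were not tested. Of 31 loci called in both wild_type libraries 26 (83.9%) had a call in yaf9d as well, in 1 or both libraries, and of 35 called in both yaf9d libraries 28 (80.0%) were called in at least 1 wild_type library. Over all nuclear loci these shares were 74.3% and 78.0%. Sharing differed between places. Beside Y', 7 of 12 loci were called in all 4 libraries and 11 of 12 in 3 or more. At the ends these numbers were 9 and 11 of 18, and elsewhere 5 and 11 of 67. In base pairs, the shared over the united length of members was 0.429 for the wild_type pair and 0.403 for the yaf9d pair. It was 0.363, 0.276, 0.361 and 0.300 for the 4 pairs of unlike genotype. Over all nuclear peaks it was 0.353 and 0.333 for the like pairs and 0.240 to 0.266 for the unlike ones. Like pairs were thus above unlike pairs there too, though the order among the unlike pairs differed.

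**Figure D5:**
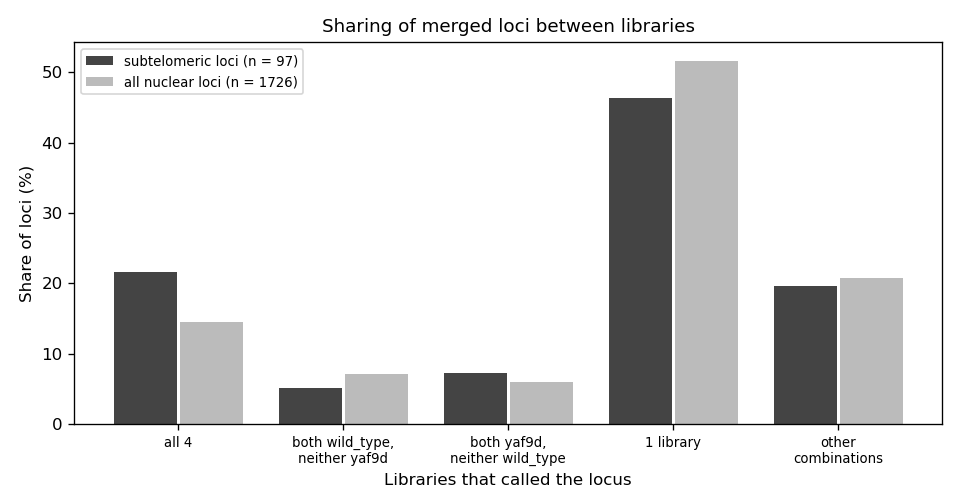
Share of merged loci in percent (vertical axis) by the libraries that called them, for the 97 subtelomeric loci (dark) and all 1726 nuclear loci (light). Subtelomeric loci were called in all 4 libraries in 21.6% against 14.5%, and the shares called in 1 genotype alone were 5.15% and 7.22% against 7.07% and 5.91%.

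The 5 loci called in both wild_type libraries alone were mostly weak. The best ranked lay on the left arm of chromosome VII (21021 to 22092), with folds of 2.69 and 3.01. Its summits were inside ZRT1, the high-affinity zinc transporter gene, and it reached the promoter of FZF1, which encodes a transcription factor for sulfite tolerance. The next covered the promoters of PRE5, a proteasome subunit gene, and its neighbours TGL3 and YMR315W (XIII right, 901630 to 902400; 2.11 and 1.95). The others were over HPF1, a cell wall mannoprotein gene (XV left, 28680 to 29152; 1.4 and 1.81), at YER188C-A beside the Y' genes of V right, and at KRR1, a ribosome assembly gene, and FYV5 (III left, 23651 to 24246; 1.47 and 1.45). Leaving out 1 library, so that the other stands for its genotype, gave 8 such loci when wild_type replicate 1 was dropped and 19 when wild_type replicate 2 was. Dropping yaf9d replicate 1 gave 8. With folds of 2 or more 1 was left, and at a −log10 q of 5 or more 3 were left.

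Of the 7 loci called in both yaf9d libraries alone, 2 were the ends XIV right and XI left given above. Another lay on III right from 295390 to 295721 (2.79 and 3.55), over the tRNA gene YNCC0014W next to the silent mating locus HMR, with summits 27 and 28 bp outside the gene, so that it narrowly missed the exclusion of tRNA summits. The tRNA gene beside HMR is known as a boundary of silent chromatin. Further sites were between genes on VI right (255929 to 256642; 2.20 and 2.58), where the nearest start is that of hexokinase gene HXK1, at YPR195C (XVI right, 927936 to 928287; 2.30 and 2.29), and inside ARN1, a siderophore transporter gene (VIII left, 19376 to 19706; 2.07 and 2.81). The last, at the promoter of the glycerol transporter gene STL1, had folds of 1.70 and 1.48 and was named after its values were seen. This count was 11 when wild_type replicate 1 was dropped. Dropping yaf9d replicate 1 gave 30, and dropping yaf9d replicate 2 gave 13.

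Most summits near chromosome ends were not in promoters. Outside both coding sequence and the 500 bp upstream of a coding start lay 22, 21, 27 and 25 members (42.3%, 52.5%, 58.7% and 40.3%), against 5.65%, 10.2%, 16.1% and 6.78% of other nuclear peaks. Promoters outside coding sequence held 6, 4, 8 and 7 members (11.5%, 10%, 17.4% and 11.3%), against 16%, 22.7%, 35.4% and 16.2%. Coding sequence held 24, 15, 11 and 29 members (46.2%, 37.5%, 23.9% and 46.8%), against 73.4%, 59.9%, 35.4% and 69.1%. RNA genes held 0, 0, 0 and 1 member, against 4.93%, 7.08%, 13.0% and 7.89%. The sets are unlike in this class, since tRNA summits were left out of the members alone.

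Genes followed the same course. Of 381 protein-coding genes that start in the windows, 33, 27, 23 and 32 had a peak over the promoter, whether or not its summit was itself a member (8.66%, 7.09%, 6.04% and 8.40%), against 15.9%, 14.3%, 11.2% and 13.6% of all nuclear protein-coding genes. The mean number was 30 ± 4.24 for wild_type against 27.5 ± 6.36 for yaf9d (SD over 2 libraries each), which is within the spread (two-sided exact permutation test, p = 0.667). In all 4 libraries 7 of 381 genes had one (1.84%, against 4.83%), and 323 had none in any library. Counting members alone gave 31, 27, 21 and 28 genes, and 5 in all 4 libraries. The 7, named after their values were seen, were FET4, HXK2, ISC10, LYS1, SLO1, YCR108C and YLL066W-B. HXK2, which encodes the main hexokinase in glucose, had folds of 2.20, 3.04, 2.44 and 2.42 (VII left, 22747 to 24297). FET4, a low-affinity iron transporter gene, had 1.74, 2.02, 1.88 and 1.74 (XIII right). LYS1, for the last step of lysine synthesis, had 1.63, 2.0, 1.96 and 1.74 (IX right). The locus over the promoters of ISC10 and SLO1 (V right, 550891 to 551475) had 1.79, 1.73, 2.08 and 2.13. Only the peak of wild_type replicate 2 is a member there, since in the other 3 libraries the summit was inside a tRNA gene. A peak with higher folds lay between TOG1, a gene for a transcription factor of fatty acid use, and PUG1, a heme transporter gene. It (V right, 559006 to 559401) had folds of 2.96 in wild_type replicate 1 and 5.69 and 3.73 in yaf9d. It was not called in wild_type replicate 2, and was also named after its values were seen.

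Few genes of repeated families had a promoter peak, and most other subtelomeric genes had none either. Of 12 lists, 148 of 152 genes are in the gene table and 128 start in the windows. Of these 128, 5, 5, 6 and 7 had a peak over the promoter (3.91%, 3.91%, 4.69% and 5.47%), beside the 8.66%, 7.09%, 6.04% and 8.40% of all genes in the windows. No call in any library was the state of 118 of the 128 (92.2%), of 84.8% of the 381 genes in the windows and of 73.3% of genes elsewhere, so 0 in a short list is what most genes show. No promoter peak in any library was called at 11 COS genes, 24 genes for uptake and breakdown of sugars (HXT, MAL, IMA and others), 3 flocculin genes, 5 aryl-alcohol dehydrogenase genes, 8 genes for vitamin synthesis, 3 genes for acid phosphatases and IMP dehydrogenase, 4 genes of the HSP31 family and 3 enolase-related repeats. Of 19 PAU genes, PAU8 alone had one, in yaf9d replicate 2 with a fold of 1.46. The 4 genes of the silent mating loci, HMLALPHA1, HMLALPHA2, HMRA1 and HMRA2, had no peak over promoter or body in any library. Y' open reading frames had 4, 4, 4 and 3 of 32 promoters under a peak, at YRF1-6, YEL075C, YHL049C, YLL066W-B, YRF1-2 or YLR462W. Of 12 genes for uptake of iron and other metals, 1, 1, 2 and 3 had one. FET4 had it in all 4 libraries, SIT1, a siderophore transporter gene, in both yaf9d libraries (2.32 and 2.40), and FIT3, a gene for a cell wall protein that retains siderophores, in yaf9d replicate 2 (2.32). The FIT3 peak itself has its summit 30325 bp from the end of XV right and is not a member.

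Per arm, a member was present on 25, 22, 26 and 29 of 32 ends, and 20 arms had one in each of the 4 libraries. The mean was 23.5 ± 2.12 ends for wild_type against 27.5 ± 2.12 for yaf9d (SD over 2 libraries each), with p = 0.333 in the two-sided exact permutation test. The difference of 4 ends was larger than the spread and was 2.5 without wild_type replicate 2 or without yaf9d replicate 2. At the border of the window, the members just inside had distances of 29519, 29510 and 29072 bp and folds of 1.80, 1.55 and 1.53. The peaks just outside had 30190, 30325 and 30357 bp and 1.55, 2.32 and 1.37.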

How the data were processed

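Each library has its own deposited peak list, with no pooling. The tools in the submitters' processing notes are MACS2 (version 2), SAMtools 1.4 and BWA 0.7.15-r1140. What each did, the build, the control, the peak threshold and how reads matching several places were handled were not given in the sources used here. The deposited ratio is the fold enrichment at the summit. The deposited −log10 p-value and −log10 q-value belong to the summit, with 1.31 the lowest −log10 q listed. The deposited score was not used, and the summit offset, another deposited value, placed the summit.

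Starts are printed 1-based. Genes came from the RefSeq table of assembly R64 (6431 nuclear genes). Peaks overlapping by 1 bp or more were merged into loci. Promoters were the 500 bp upstream of a coding start. Pileup and background were recovered as the whole number and Poisson mean that give the listed fold and −log10 p within 0.001, found for 99.5%, 99.9%, 99.0% and 99.5% of peaks, and the steps were tested on simulated data. Genotypes were compared by exact permutation of 4 library values. Python 3.11.15 and SciPy 1.17.1 were used.

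The members, gene families and tests were chosen with earlier results of these data known. Loci named are the 10 best by mean rank among those called in all 4 libraries, the 5 best of each genotype pattern, ends called in all 4 libraries, up to 4 genes per family and the silent mating loci. The split by Y' genes and other named items were chosen after their values were seen. No sequence is printed.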

Additional observations from a re-analysis of the deposited data

Results flagged for a closer look

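Peaks on the mitochondrial genome, which enter no comparison of subtelomeric peaks, numbered 39 in yaf9d replicate 2 and 0 in each of the other 3 libraries. They were listed because they lie outside the nuclear peaks and exceed the number in the wild_type libraries.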

How the results depend on the processing

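Of the values recomputed for the 6 main results, 36 kept their direction and stayed within 1.5 times for counts, 5 reversed and 8 counts moved. The 36 include the values with replicate number as a block, which leaves each difference unchanged by construction. No exact test of 2 against 2 libraries can pass 0.05, so a kept direction is no sign of stability here. The share of peaks that are subtelomeric (yaf9d minus wild_type 0.673 percentage points) was -0.749 with folds of 2 or more, and ranged from -0.339 to 1.69 when 1 library was left out. The number of genes with a promoter peak (difference -2.5) was 0.5 with folds of 2 or more, and ranged from -7 to 2. The rank difference ranged from 6.17 to 17.8 and that of ends from 2.5 to 5.5. Loci called in wild_type alone (5) numbered 1 with folds of 2 or more and 3 at a −log10 q of 5 or more, and 7 to 19 with 1 library left out. Those called in yaf9d alone (7) ranged from 10 to 30. Fewer libraries have to agree there, which makes such counts larger by construction. The cause of the other changes was not tested. Right ends taken from genes alone left the share and rank at 0.673 and 12. Arms with a peak beside Y' numbered 12 within 2 kb, 9 within 1 kb and 11 at a −log10 q of 5 or more, settings chosen after seeing the data. So was the count of loci without peaks in tRNA genes, 20 in place of 21 called in all 4 libraries.

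With the replicate number as a block, exact sign-flip tests of the 2 paired differences gave p = 1 for the share (0.673), 0.5 for the rank (12), 0.5 for the ends (4) and 1 for the genes (-2.5), and 0.5 is the smallest possible. The replicate differences of log2 fold correlated between genotypes at -0.0415 over 251 loci. This cannot tell whether libraries with the same number were processed together, since an effect alike at all loci would leave no such correlation.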

Other observations

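Some arms held runs of peaks over ordinary genes that few libraries shared. VI right had 10 loci, the most of any arm, with 4, 4, 2 and 6 members. Several lay over PRE4, a proteasome gene, RET2, a coatomer gene, and RPN12, a proteasome gene. The locus at RET2 and RPN12 (251560 to 252724) had folds of 2.77, 1.74 and 1.94 in both wild_type libraries and yaf9d replicate 2. XIII left had 8 loci, of which the one beside Y' was the only one called in more than 1 library. XVI left had 3 members, all in yaf9d replicate 2, at SAM3 and SAM4, genes for use of S-methylmethionine and S-adenosylmethionine, with folds of 1.79, 1.75 and 2.10.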
